A study of Homo sapiens with 6 samples.

Results

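The genes described here are the core and linker histone genes whose symbols follow the pattern H1-, H2AC, H2BC, H3C or H4C and a number. They are taken from the count table by this name rule, which uses no measured values but was chosen with earlier results of these data known. The rule finds 73 of 78932 rows, and 72 are described here, namely 9 H1, 17 H2A, 18 H2B, 13 H3 and 15 H4 genes. Of these, 55 lie on chromosome 6, 11 in a group on chromosome 1 that holds H2BC21 and H4C14, and 2 (H2AC25 and H2BC26) farther along chromosome 1. The remaining 4 (H1-7, H1-8, H1-10 and H4C16) lie outside these clusters, so the name "clustered" does not cover every gene the rule takes.

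The libraries come from T24, an established line of urothelial carcinoma cells, transfected with a control siRNA (siNC) or with siRNA against TRIM28 (siTRIM28). TRIM28 is a scaffold protein that zinc-finger repressors recruit to silence chromatin. Each group has 3 libraries labelled as biological replicates, all of 1 batch and 1 cell line. Polyadenylated RNA was captured on beads before a stranded library was made, and the time after transfection is not given in the sources used here.

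Replication histone genes are transcribed mainly in S phase, when new DNA has to be packaged. Their mRNAs normally lack a poly(A) tail and end in a short stem-loop that is bound by SLBP, the protein that escorts these mRNAs from processing to translation. Capture by the poly(A) tail therefore takes up such mRNAs poorly, and what it does collect includes histone transcripts that run on to an ordinary polyadenylation signal. H1-10 is a linker histone gene expressed outside S phase as a polyadenylated mRNA.

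The ends of these transcripts are shown first, because they set what a poly(A) library can hold. In GENCODE v29 (GRCh38), 68 of the 72 genes were matched by Ensembl gene identifier to a protein-coding transcript. H2AC18, H2AC19, H3C2 and H3C3 had no match by identifier, and a match under another identifier was not sought. The search was, anywhere in the transcript, for a perfect hairpin of 16 bases (it starts with GG, its stem has 6 pairs and its loop of 4 bases starts with TT) and, within the last 50 bases only, for the letters AATAAA, both on the transcript strand. The hairpin is found in 27 of the 68 genes, against 0.605% of 19684 genes in all. The signal is found in 19 of the 68, against 69.8% of those genes, and 13 have both in 1 transcript. In 31 of the 68 genes the annotated transcripts hold only the coding part (297 to 681 bases), so neither element could be found there. Capitals mark the stem or the signal in the following lines.
H2AC6 hairpin (chr6:26124664-26124689, plus strand): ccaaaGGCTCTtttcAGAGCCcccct
H2BC4 hairpin (chr6:26123467-26123492, minus strand): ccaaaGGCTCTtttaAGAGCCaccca
H2BC5 hairpin (chr6:26158582-26158607, plus strand): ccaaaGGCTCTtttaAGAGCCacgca
H3C10 hairpin (chr6:27810511-27810536, plus strand): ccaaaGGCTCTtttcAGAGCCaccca
H4C14 hairpin (chr1:149833027-149833052, plus strand): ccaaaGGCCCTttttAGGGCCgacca
H2AC6 signal (chr6:26139076-26139102, plus strand): ctggcatgaggtAATAAAaggtaatgc
H2BC5 signal (chr6:26171313-26171342, plus strand): aaagttataattAATAAAatctgcggagaa
H1-10 signal (chr3:129314775-129314804, minus strand): ttttttgggcacAATAAAgcgtttaaacct
The stem is GGCTCT in all 19 H2A, H2B and H3 genes in which the hairpin is found, and GGCCCT in all 8 such H4 genes. H2AC6 and H2BC5 carry both kinds of end. H1-10 has the signal without the hairpin.

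Promoters are shown for H2AC6, which stands head to head with H2BC4 and shares this stretch with it, for H4C12, which is called lower, and for H1-10, which has the highest level. The RefSeq promoters (GRCh38.p14) run from 250 bases before the start to 50 after it, and 67 of the 72 genes match with 72 entries. The letters CCAAT, the letters TATAAA of the TATA box and the octamer ATGCAAAT were searched on both strands and stand in capitals.
H2AC6 promoter (chr6:26123922-26124221, plus strand): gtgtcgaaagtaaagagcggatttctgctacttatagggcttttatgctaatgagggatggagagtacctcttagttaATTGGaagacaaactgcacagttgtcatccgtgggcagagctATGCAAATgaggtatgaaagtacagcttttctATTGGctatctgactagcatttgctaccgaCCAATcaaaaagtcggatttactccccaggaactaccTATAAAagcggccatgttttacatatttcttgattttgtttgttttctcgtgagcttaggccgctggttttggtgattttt
H4C12 promoter (chr6:27831511-27831810, minus strand): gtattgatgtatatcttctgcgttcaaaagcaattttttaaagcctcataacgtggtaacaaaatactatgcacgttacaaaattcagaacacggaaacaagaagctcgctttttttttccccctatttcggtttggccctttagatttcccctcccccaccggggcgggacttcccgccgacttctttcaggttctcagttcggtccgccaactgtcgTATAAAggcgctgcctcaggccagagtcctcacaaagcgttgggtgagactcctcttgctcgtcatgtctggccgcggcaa
H1-10 promoter (chr3:129316237-129316536, minus strand): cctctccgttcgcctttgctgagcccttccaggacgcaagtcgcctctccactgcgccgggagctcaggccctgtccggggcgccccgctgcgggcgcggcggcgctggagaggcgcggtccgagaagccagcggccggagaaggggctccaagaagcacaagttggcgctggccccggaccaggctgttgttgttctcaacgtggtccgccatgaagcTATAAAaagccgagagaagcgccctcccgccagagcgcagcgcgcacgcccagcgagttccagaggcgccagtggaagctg
The octamer is in 27 of the 72 histone promoters (37.5%), against 1.77% of all 35116 promoters. It falls in 15 of 20 H2B entries and 11 of 16 H2A entries, in 1 of 13 H3 entries and in none of the H1 and H4 entries. CCAAT is in 83.3% of the histone promoters against 34.6% of all, and TATAAA in 63.9% against 11.5%. The stretch shared by H2AC6 and H2BC4 holds each of the 3 motifs. Such matches describe the letters and are not evidence of a bound factor.

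Total counts per library lie between 11712623 and 14018052. TRIM28 itself falls from 103.7 ± 4.09 to 8.87 ± 0.658 CPM, counts relative to the TMM-scaled library total (mean ± SD, n = 3). This is a log2 fold change of −3.54 (SE 0.072, edgeR adjusted p = 1.03e-10). Of 9 epithelial and urothelial markers only the keratins KRT8, KRT18 and KRT7 pass the count minimum, at 103.5, 86.1 and 2.84 CPM in siNC. KRT19, EPCAM, GATA3, UPK2 and UPK3A stay under it, and the uroplakin UPK1B has no count. The markers are thus mixed, and the cell type is taken from the labels. Of 8 markers of other cells, CD68 (347.5 CPM in siNC) and COL1A1 (0.932 CPM in siNC and 3.28 in siTRIM28) pass, while CD3E and CDH5 have no count. The histone genes described take 1476 to 1922 counts per library, between 0.0106% and 0.0148% of the total, and H1-10 makes up 701 to 1110 of these.

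One library stands apart in RNAs without a poly(A) tail before any comparison is made. siNC 3 holds 9088 counts of RN7SK, RN7SL1, RN7SL2, RMRP and RPPH1, small RNAs that carry no such tail. The other 5 libraries hold between 230 and 685, the most in siTRIM28 1 (536 of RN7SK). Over all genes, siTRIM28 1 also differs from the other libraries of its group. RN7SL1, an RNA of the signal recognition particle, has 2066 counts in siNC 3 and 25 to 53 elsewhere. Histone genes with a gene model under 1000 bases are also highest in that library. Their 44 rows sum to 534 counts in siNC 3 and to 192 to 229 in the others, or 41.9 CPM against 13.9 to 18.2. The 27 longer rows other than H1-10 sum to 653 counts in siNC 3 and to 479 to 591 in the others. Library siNC 3 has the highest raw count of the 6 libraries in 31 of the 44 short genes and in 7 of the 28 genes of 1000 bases or more. The counts of calls, the class sums and the fold changes of the tested histone genes are therefore given with and without this library, and the part of these RNAs in a histone result was not tested.

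**Figure D1:**
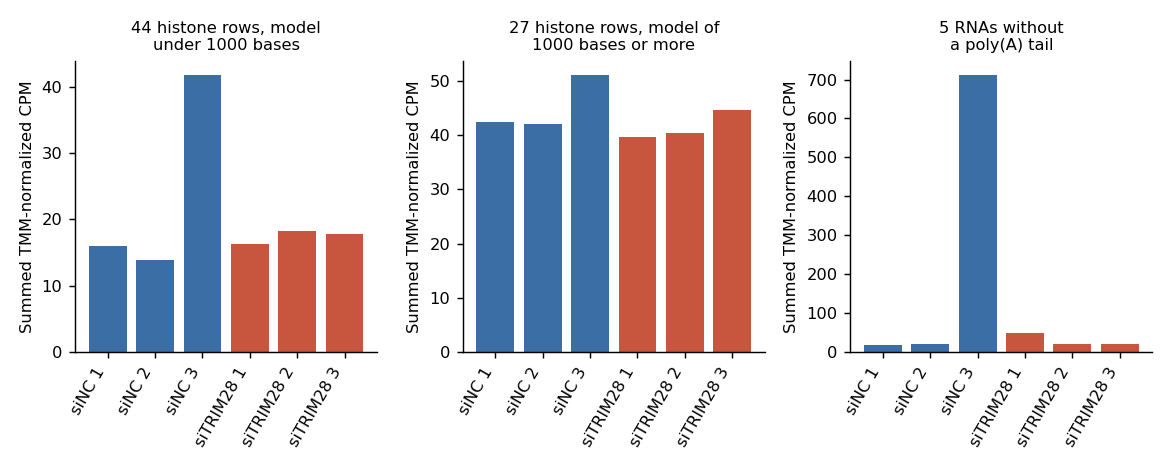
Summed TMM-normalized CPM in each of the 6 libraries for 44 histone rows with a gene model under 1000 bases, for the 27 longer rows other than H1-10, and for 5 RNAs without a poly(A) tail, with siNC in blue and siTRIM28 in red. The short histone rows reach 41.9 CPM in siNC 3 and at most 18.2 elsewhere, and the RNAs without a tail 712.5 CPM in siNC 3 and at most 48.9 elsewhere.

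The excess in siNC 3 differs widely from gene to gene. H1-4, the linker histone H1.4, has 69 counts in siNC 3 against 8 and 3 in siNC 1 and siNC 2, 12.5 times their mean. H1-5 has 37 counts there against 3 and 6, H2AC14 has 26 against 3 and 1, and H2AC20 has 17 against 1 and 1. H1-10 at 1.01 times, H2AC6 at 0.933 times and H2BC5 at 1.06 times show no such excess. The 19 tested genes with a matched transcript were split by the signal. The 9 with it have ratios of 0.84 to 1.79 (median 1.06), and the 10 without it 0.758 to 12.5 (median 1.32). These ratios are a description of 1 library, with no test. Of the genes without the signal, H1-2, H2AC15, H2BC12, H3C4 and H4C12 have annotated transcripts of the coding part only. A signal could not be found in them, so this split also follows how complete the annotation is.

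**Figure D2:**
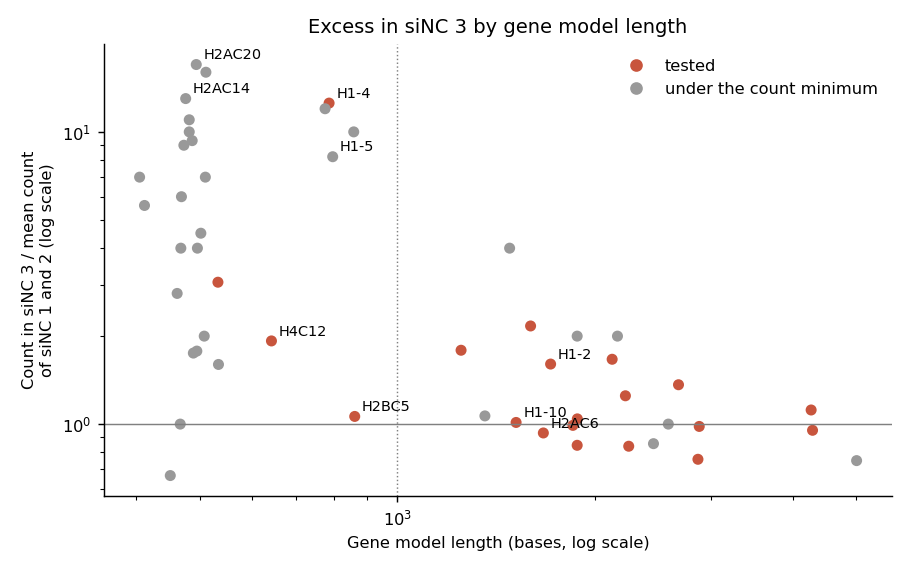
Count in siNC 3 divided by the mean count of siNC 1 and siNC 2 (log scale) against gene model length in bases (log scale) for the 51 histone genes with a value on this scale; red points are tested genes, the solid line marks a ratio of 1 and the dotted line 1000 bases. The ratio is highest for H2AC20 (17), which was not tested, and among tested genes for H1-4 (12.5). H1-10 (1.01) and H2AC6 (0.933) lie at the line. Another 10 genes with a count in siNC 3 have none in siNC 1 and siNC 2 and cannot be drawn.

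To ask how TRIM28 silencing relates to these genes, siTRIM28 is compared with siNC over all genes that reach 10 counts in 3 or more libraries. Only 20 of the 72 histone genes pass this minimum, 47 have some counts below it and 5 have none (H1-1, H1-8, H2AC1, H4C6 and H4C7). H1-10 and H3C4 rise and H2AC6, H2BC4 and H4C12 fall at an adjusted p under 0.05 (edgeR quasi-likelihood test), while 15 are not called. Among all 18474 genes tested, 21.3% are called higher, 20.5% lower and 41.8% in either direction, against 25% of the 20 histone genes. Apart from H1-10, these have mean counts of only 10.7 (H3C6) to 135.7 (H2BC5), and a gene with few counts is harder to call. Shares called are not matched for counts, here or for the lists further on. The groups do not overlap for 6 of the 20, the 5 called genes and H2AC11, against 52% of all genes. The median log2 fold change of the 20 is −0.10, beside 0.02 for all genes. A bulk level cannot tell apart the number of cells in S phase from the histone mRNA in each cell.

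Without siNC 3, the background is 35.6% called. Then H1-10 and H3C4 are called higher, H2AC6 and H4C12 are called lower, and H2BC4 is no longer called (edgeR adjusted p = 0.109). This fit kept the genes chosen with all libraries, and H4C12 would fail the count minimum without siNC 3. The median log2 fold change of the 20 becomes 0.24 on that comparison. The sign of the median thus turns without that library, and it also turns without siTRIM28 1 (0.02) and with limma-voom (0.06).

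**Figure D3:**
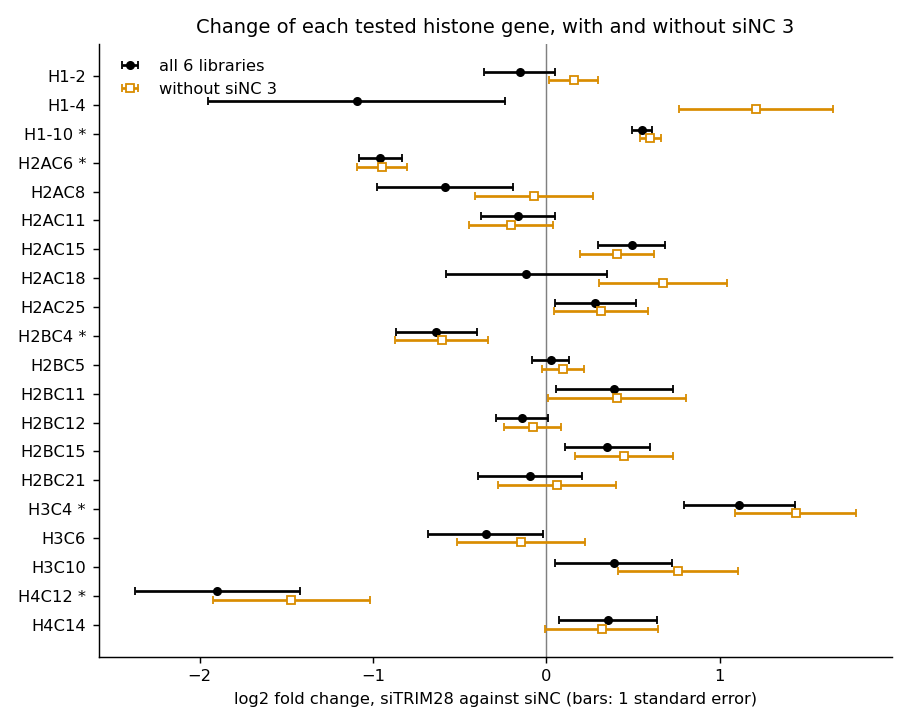
Log2 fold change of siTRIM28 against siNC for the 20 tested histone genes with all 6 libraries (black circles) and without siNC 3 (open orange squares); bars are 1 standard error and asterisks mark an adjusted p under 0.05 with all libraries. H2AC6 and H1-10 hardly move between the fits, whereas H1-4 goes from −1.09 to 1.21.

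Linker histones bind the DNA that enters and leaves the nucleosome, and H1-10 is the most abundant of these genes per length. It has 750, 701 and 735 counts in siNC and 1110, 968 and 910 in siTRIM28, so every siTRIM28 library lies above every siNC library. The level is 54.1 ± 3.50 CPM in siNC and 79.3 ± 2.45 CPM in siTRIM28 (mean ± SD, n = 3), and its log2 fold change is 0.55 (SE 0.060, edgeR adjusted p = 2.07e-05). Per kilobase of gene model this is 35.7 CPM in siNC and 52.3 CPM in siTRIM28. H1-10 rises without siNC 3 as well, at a log2 fold change of 0.60.

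H1-10 overlaps an annotated gene on the opposite strand with nearly the same counts. This gene, H1-10-AS1, has 736, 734 and 708 counts in siNC and 1228, 952 and 899 in siTRIM28 (log2 fold change 0.60). The kit keeps strand, but the sources used here do not say if the counting did, so reads of a gene and of its antisense partner cannot be told apart here.

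The other linker genes described belong to the chromosome 6 cluster or to the germ line. H1-2 has 82, 80 and 130 counts in siNC and 99, 76 and 71 in siTRIM28, and is not called (log2 fold change −0.15, SE 0.21; 0.16 without siNC 3). H1-4 has 8, 3 and 69 counts in siNC and 14, 11 and 10 in siTRIM28, and its siNC values enclose all of its siTRIM28 values. Its log2 fold change is −1.09 (SE 0.86, edgeR adjusted p = 0.337) with all libraries and 1.21 (SE 0.44, edgeR adjusted p = 0.0576) without siNC 3. In that second fit only siTRIM28 libraries reach 10 counts for H1-4. H1-3, H1-5, H1-6 and H1-7 stay under the count minimum, the last 2 with 1 count each over all libraries.

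H2A and H2B form the dimers at the flanks of the nucleosome, and H2AC6 is the most abundant H2A gene per length. Its counts are 179, 147 and 152 in siNC and 83, 64 and 82 in siTRIM28, with no overlap. The level falls from 11.8 ± 1.14 to 6.09 ± 0.772 CPM, with a log2 fold change of −0.96 (SE 0.12, edgeR adjusted p = 7.75e-05). Leaving out siNC 3 gives −0.95 (edgeR adjusted p = 0.000617). No overlapping gene has a count near that of H2AC6, and the annotated signal of its longer transcript is the one printed above.

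The head-to-head partner of H2AC6 is H2BC4, 240 bases away on the minus strand. It has 30, 25 and 27 counts in siNC and 16, 19 and 14 in siTRIM28, again without overlap. The level falls from 2.03 ± 0.193 to 1.31 ± 0.256 CPM at a log2 fold change of −0.63 (SE 0.23, edgeR adjusted p = 0.0480). Its fold change hardly moves without siNC 3 (−0.60), but the call is close to the threshold. It is kept without siTRIM28 2 (edgeR adjusted p = 0.0361) and lost when any other single library is left out (up to 0.134). It is also lost under upper-quartile (0.0598) and total-count (0.0533) scaling, without the count minimum (0.104) and with the replicate block (0.0716). The same holds with close library pairs summed (0.0832) and with DESeq2 (0.195). The listed span of H2BC4 also encloses a better counted gene on the opposite strand, which has 141, 115 and 118 counts in siNC and 85, 84 and 83 in siTRIM28 (log2 fold change −0.46), so the H2BC4 value is uncertain. Of 14 such divergent pairs with at most 978 bases between them, 3 have both members tested. H2AC15 and H2BC15, 169 bases apart, give log2 fold changes of 0.49 and 0.35, and H2BC11 and H2AC11, 494 bases apart, give 0.39 and −0.16, none of them called.

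The other tested H2A genes are not called. H2AC15 comes nearest, with 44, 51 and 36 counts in siNC and 74, 41 and 57 in siTRIM28 (log2 fold change 0.49, edgeR adjusted p = 0.0606), and its groups overlap. It is called under upper-quartile scaling (0.53, edgeR adjusted p = 0.0449) and without siTRIM28 2 (0.65, edgeR adjusted p = 0.0166), and gives 0.41 without siNC 3. H2AC25, of the distal pair on chromosome 1, gives 0.28 (SE 0.23) and 0.32 without siNC 3. Without siTRIM28 1 it is called (0.56, edgeR adjusted p = 0.0141), and without siTRIM28 3 it gives 0.064. H2AC11 gives −0.16 (SE 0.21) and −0.20 without siNC 3. H2AC8 gives −0.58 (SE 0.39) with all libraries and −0.07 without siNC 3. H2AC18 gives −0.11 (SE 0.46) and 0.67 without siNC 3. H2AC18 has a near-identical copy, H2AC19, whose reads the counting could have split, and it overlaps an opposite-strand gene, ENSG00000290791, with 118, 121 and 115 counts in siNC and 306, 253 and 264 in siTRIM28. H2AC4, H2AC7, H2AC12, H2AC13, H2AC14, H2AC16, H2AC17, H2AC19, H2AC20 and H2AC21 stay under the minimum.

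H2BC5 is the most abundant H2B gene per length, at 12.02 CPM per kilobase in siNC and 12.21 CPM per kilobase in siTRIM28. It has 150, 123 and 145 counts in siNC and 146, 130 and 120 in siTRIM28, and the groups overlap. Its log2 fold change is 0.02 (SE 0.11, edgeR adjusted p = 0.879), the value nearest to 0 among the 20 genes, and 0.09 without siNC 3. H2BC12, H2BC21, H2BC11 and H2BC15 are not called either, at −0.14 (SE 0.15), −0.09 (SE 0.30), 0.39 (SE 0.34) and 0.35 (SE 0.25). Without siNC 3 these values are −0.08, 0.06, 0.41 and 0.45. H2BC1, H2BC3, H2BC6, H2BC7, H2BC8, H2BC9, H2BC10, H2BC13, H2BC14, H2BC17, H2BC18 and H2BC26 stay under the minimum.

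**Figure D4:**
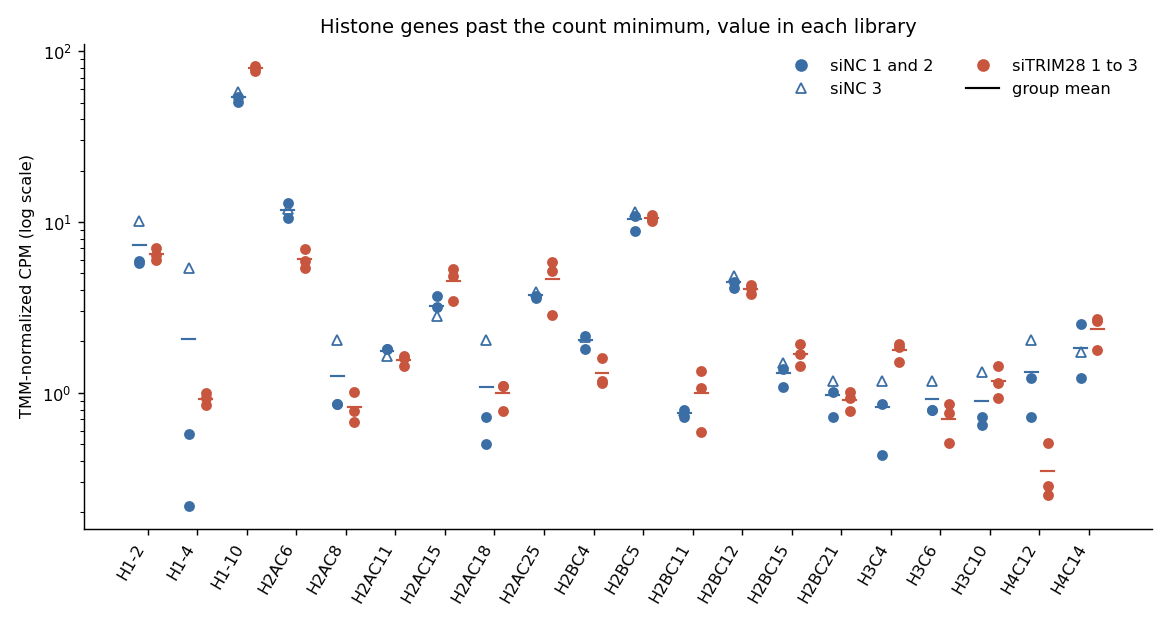
TMM-normalized CPM (log scale) of the 20 tested histone genes in each library, with siNC in blue (open triangles for siNC 3), siTRIM28 in red and short lines at the group means. H1-10 lies higher in every siTRIM28 library and H2AC6 lower, and the siNC 3 triangle of H1-4 lies far above the other libraries.

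H3 and H4 form the inner tetramer of the nucleosome, and their genes have the fewest counts. H3C4, which encodes histone H3.1, has 12, 6 and 15 counts in siNC and 26, 18 and 23 in siTRIM28. Its level rises from 0.824 ± 0.373 to 1.77 ± 0.223 CPM, with a log2 fold change of 1.11 (SE 0.32, edgeR adjusted p = 0.0147), and without siNC 3 the value is 1.44. Without siNC 2, which has its lowest count, the rise is no longer called (edgeR adjusted p = 0.0619). H3C4 overlaps the opposite-strand pseudogene H1-12P, with 6, 5 and 4 counts in siNC and 22, 14 and 19 in siTRIM28 (log2 fold change 1.95), and a same-strand gene, ENSG00000282988, with 13, 7 and 22 counts in siNC and 27, 20 and 24 in siTRIM28 (log2 fold change 0.85, edgeR adjusted p = 0.0678). The reads of H3C4 therefore cannot be told apart from those of its neighbours. H3C10, the most abundant H3 gene per length, has 9, 10 and 17 counts in siNC and 16, 11 and 17 in siTRIM28 and is not called (log2 fold change 0.39, SE 0.34). It gives 0.76 without siNC 3 and 0.19 without siNC 1. H3C6 is not called at −0.35 (SE 0.33; −0.15 without siNC 3), and H3C1, H3C2, H3C3, H3C7, H3C8, H3C11, H3C12, H3C13, H3C14 and H3C15 stay under the minimum.

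Nearly all H4 genes of the clusters encode the same protein, and 2 of 15 pass the minimum. H4C12 has 17, 10 and 26 counts in siNC and 4, 3 and 6 in siTRIM28, with no overlap. The level falls from 1.33 ± 0.664 to 0.349 ± 0.138 CPM, with a log2 fold change of −1.90 (SE 0.48, edgeR adjusted p = 0.00724). H4C12 is the 1 tested histone gene that reaches 10 counts in libraries of a single group, so it could be tested only because it is high in siNC, and it drops out with H3C4 when 10 counts are asked of every library. Without siNC 3 the value is −1.47 (edgeR adjusted p = 0.0283), at a depth of at most 6 counts per siTRIM28 library. Only siNC 1 and siNC 2 reach 10 counts then, under the minimum of 3 libraries, so this call adds no support. H4C14 has 17, 35 and 22 counts in siNC and 25, 32 and 31 in siTRIM28 and is not called (log2 fold change 0.36, SE 0.28; 0.32 without siNC 3). Its copy H4C15 has 1 count in siNC 1, 1 in siNC 3 and none in siTRIM28, so the division of reads between these copies is uncertain. H4C1, H4C2, H4C3, H4C4, H4C5, H4C8, H4C9, H4C11, H4C13, H4C15 and H4C16 stay under the minimum.

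The summed levels of the classes rest largely on their most counted genes. The H1 genes described sum to 65.0 ± 10.6 CPM in siNC and 87.2 ± 2.66 CPM in siTRIM28, but to 10.9 ± 7.38 and 7.90 ± 0.545 CPM without H1-10. The siNC value without H1-10 rests on siNC 3, since the libraries are at 6.84, 6.50 and 19.4 CPM, and the log2 ratio is −0.47 with siNC 3 and 0.24 without it. H2A sums to 26.2 ± 5.25 and 20.5 ± 2.56 CPM, and without H2AC6 the log2 ratio of the groups goes from −0.35 to 0.00017 with all libraries and to 0.33 without siNC 3. H2B sums to 21.9 ± 2.71 and 21.6 ± 1.53 CPM, H3 to 4.37 ± 3.08 and 4.59 ± 0.803 CPM, and H4 to 5.76 ± 2.49 and 4.51 ± 0.883 CPM. Without siNC 3 the log2 ratios of the class sums are 0.56 for H1, −0.18 for H2A, 0.08 for H2B, 0.82 for H3 and 0.05 for H4. All members other than H1-10 sum to 58.5, 56.0 and 93.1 CPM in siNC and to 56.1, 58.7 and 62.4 CPM in siTRIM28. The 3 siTRIM28 values lie within the range of the siNC values, and the log2 ratio is −0.23 with siNC 3 and 0.05 without it.

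Genes that make, escort or accompany histones are given from 4 lists. Without siNC 3, 35.6% of all tested genes are called in either direction. In that fit 6 genes of transcription and processing are higher and 8 lower, of 26 tested. For chaperones these counts are 4 and 12 of 25, for variants 2 and 4 of 10, and for S phase 7 and 6 of 25. The counts with all libraries are given next. The 17 called genes named from these lists are called without siNC 3 as well, and the log2 fold changes of the 21 named move by at most 0.12. SLBP, the stem-loop binding protein, is at 57.1 ± 1.97 CPM in siNC and 61.7 ± 4.26 CPM in siTRIM28 and is not called (log2 fold change 0.11, SE 0.063). NPAT, the coactivator of histone transcription that cyclin E and CDK2 phosphorylate, is at 9.94 ± 1.38 and 9.04 ± 0.639 CPM and is not called (−0.14, SE 0.12). Of 26 genes of histone mRNA transcription and end processing, all tested, 8 are higher and 9 lower, or 65.4% in either direction beside 41.8% of all genes (21.3% higher and 20.5% lower), with a median log2 fold change of 0.0028. LSM10, a subunit of the U7 particle that directs cleavage behind the stem-loop, falls from 4.13 ± 0.762 to 1.18 ± 0.439 CPM (log2 fold change −1.79, SE 0.26, edgeR adjusted p = 0.000204). Its partner LSM11 is not called at 0.02 (SE 0.14).

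Histone chaperones, which carry histones to and from DNA, are lower for 14 of 25 tested genes and higher for 4 (72% in either direction, beside 41.8% of all genes), with a median log2 fold change of −0.15. ASF1B, a chaperone of H3 and H4, falls from 6.34 ± 0.397 to 1.95 ± 0.581 CPM (log2 fold change −1.72, SE 0.20, edgeR adjusted p = 3.61e-05). SPTY2D1 (−0.85), NAP1L4 (−0.68), a chaperone of H2A and H2B, and TONSL (−0.67), which reads newly replicated chromatin, also fall. HJURP, the chaperone that places CENPA at centromeres, rises from 225.4 ± 6.46 to 462.0 ± 29.7 CPM (log2 fold change 1.04, SE 0.050). NASP, at 1258.8 CPM in siNC, is not called at 0.0023 (SE 0.040).

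Histone variants are mostly made outside the replication clusters, and 10 of the 14 listed rows found in the table are tested. H3-4, which is not tested, lies near H2AC25 on chromosome 1. They split into 2 higher and 4 lower (60%, beside 41.8% of all genes), with a median log2 fold change of 0.03. CENPA, the centromeric H3, falls from 25.4 ± 2.51 to 13.0 ± 2.83 CPM (log2 fold change −0.98, SE 0.13, edgeR adjusted p = 0.000108), while its chaperone HJURP rises. H2AX, which is phosphorylated at DNA breaks, falls at −0.81 (SE 0.092) and MACROH2A1 at −0.67 (SE 0.044).

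The 25 genes of S phase split into 9 higher and 9 lower (72%, beside 41.8% of all genes), with a median log2 fold change of 0.05. CCNE1, the cyclin that drives entry into S phase, rises from 16.2 ± 1.58 to 28.9 ± 1.76 CPM (log2 fold change 0.83, SE 0.083, edgeR adjusted p = 1.01e-05). CCNE2 rises at 0.42 (SE 0.10), CCNA2 at 0.25 (SE 0.062) and CDT1, which licenses origins, at 0.64 (SE 0.098). POLA1, the catalytic subunit of DNA polymerase alpha, falls from 50.6 ± 0.686 to 19.9 ± 2.09 CPM (log2 fold change −1.35, SE 0.076, edgeR adjusted p = 1.24e-07). RRM2 (−1.09), which makes deoxyribonucleotides, and the helicase subunits MCM2 (−0.70) and MCM6 (−0.64) fall too.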

How the data were processed

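Per the submitters' processing notes, reads were trimmed with fastp 0.23.1, aligned to GRCh38 with STAR 2.7.6a and counted per gene with featureCounts. The authors deposited raw counts per gene for 78932 genes in 6 libraries. The settings for strand, for reads with several matches and for duplicates are not given in the sources used here, and for 4 histone genes the stated model length exceeds the listed span. A second deposited table holds RPKM of genes the authors chose and was not used. Genes reaching 10 counts in 3 or more libraries entered the edgeR quasi-likelihood test (version 4.0.16, R 4.3.3, TMM scaling, no term but condition). Adjustment was by Benjamini-Hochberg over all tested genes, with a threshold of 0.05, and standard errors were derived from the F statistic. The fitting code was tested on simulated data. With 3 against 3 libraries an exact permutation test of 1 gene cannot give a p under 0.1. A second threshold is an absolute log2 fold change of 0.58. Alternatives were other scalings, DESeq2 1.42.0, limma-voom (limma 3.58.1), other filters, a replicate block and leaving out each library.

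One gene that matches the name rule is not reported here. The members and lists were chosen with earlier results of these data known. The RNAs without a poly(A) tail, and the sum of the close library pairs, were chosen after the values were seen. Values in each library are given for called members with a mean of at least 50 counts and for the most abundant member per length of each class, and further members were added after their values were seen. Companion genes are named at an adjusted p under 0.05 and a log2 change past 0.58, with SLBP, NPAT and the cyclins always. LSM11 and NASP were added later. By chi-square per degree of freedom over genes, siNC 1 and 2 (1.08) and siTRIM28 2 and 3 (1.22) lie closer than the other pairs within a group (4.17 to 6.25). The pairs of siNC 3 give 4.17 and 4.22, and those of siTRIM28 1 give 6.25 and 5.65. A value of 1 is the spread of counting alone, and the close pairs lie little above it. The labels say biological replicate and no more, so p-values measure the spread between these libraries. That spread may be less than the spread between independent cultures, which was not tested.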

Additional observations from a re-analysis of the deposited data

How the results depend on the processing

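The counts of histone genes called were within 1.5 times of 2 higher and 3 lower under the alternatives run, apart from 6 lower without the filter and 1 higher with 10 counts asked of every library, at an adjusted p under 0.01 and with the 0.58 threshold. Leaving out 1 library gave 1 to 3 higher, the lowest without siNC 2. H2AC20, H1-5, H2AC14 and H1-4 are the added calls without the filter, each highest in siNC 3. The median log2 fold change of the 20 genes was 0.0612 with limma-voom and −0.428 without the filter, and leaving out 1 library gave −0.148 to 0.237 (the highest without siNC 3). Direction turned, among genes that are not called, for H2AC18 (0.12 with limma-voom, −0.47 to 0.67 without 1 library), H1-4 (0.0897 with limma-voom, −1.65 to 1.21 without 1 library), and, without 1 library, H2BC5 (−0.085 to 0.095), H2BC21 (−0.28 to 0.061) and H1-2 (−0.30 to 0.16). Of all genes, 3144 pass the 0.58 threshold, against 7723 without it. The lists of 3′ processing (8 higher, 9 lower), chaperones (4, 14), variants (2, 4) and S phase (9, 9) gave these other counts. Processing genes called higher were 3 with DESeq2, 3 at an adjusted p under 0.01, 2 with close library pairs summed and 3 to 9 without 1 library, and 5 were lower at 0.01. Variants called higher were 1 with DESeq2, 1 with close pairs summed and 1 to 3 without 1 library, and S phase genes called lower were 5 at 0.01. With the 0.58 threshold the lists gave 0 and 1, 1 and 4, 0 and 3, and 2 and 4. The summed log2 ratio without the highest member was −0.468 for H1, 0.00017 for H2A and −0.875 for H4 (0.244, 0.328 and −0.215 without siNC 3), and that of H3 ran from −0.22 to 0.82 without 1 library, the highest without siNC 3. For these values the cause was not tested. Correlations of same-numbered deviations were 0.052, −0.012 and 0.037, and not every library correlates best with its own number. With 3 libraries per group these values cannot decide if replicate numbers pair the samples. With the number as a replicate block 7910 genes are called, and 2 histone genes higher and 2 lower. Most histone genes stay under the count minimum and were not tested.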
